A study of Mus musculus with 9 samples.

Results

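The 45 genes described here encode the machinery that copies DNA and supplies its building blocks. They were taken by name: the Ensembl identifiers of the count files were paired with mouse symbols, and all 45 symbols were found among the 54232 genes listed. The list was chosen with earlier results of these data known, so shares over all genes beside it are a description only. Each of the 45 passed the filter on low counts and is among the 15712 genes tested. Expression was measured by RNA sequencing in 9 libraries of cortical neurons from mice. The labels give wild type as the genotype and CD1, which is an outbred stock, as the strain. The libraries form 3 groups of 3 repeats, named in their titles control, PA, and PA + PS2. PA is a peptide amphiphile, in which a short peptide carries a lipid-like tail so that the molecules assemble into nanofibres. Its library names add IKVAV, the laminin motif that cells bind. The PA + PS2 libraries carry the name IKVAV plus PEDOT-S-OH, a polymer of the conducting PEDOT family, and the control libraries carry the name PDL, which the labels do not spell out. Because all 9 libraries, controls among them, have peptide amphiphile as their treatment label, the groups follow the titles. The labels give no age, time in culture, dose or pooling of animals, nor do they say whether repeats were separate cultures, so the p-values reflect only the spread among these samples, and that spread may be technical.

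DNA replication starts when the origin recognition complex, Cdc6 and Cdt1 load rings of the MCM helicase onto DNA in the G1 phase. Cdc45 and the GINS complex then turn these rings into active helicases. Polymerase alpha with primase starts each strand, and polymerases epsilon and delta extend it together with the sliding clamp PCNA. Ribonucleotide reductase, thymidylate synthase and thymidine kinase supply deoxynucleotides, and many of these genes are transcribed under E2F factors as cells enter S phase. In embryonic cortex such genes mark dividing progenitors, while neurons have left the cell cycle.

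The deposited values are raw read counts, with 20746851 to 27237398 counts per library. Levels are given as CPM, counts scaled to a common library total after TMM normalization, in each library, and log2 fold changes are given with their standard errors (SE). A gene passed at a Benjamini-Hochberg adjusted p under 0.05 in edgeR's quasi-likelihood test over all 15712 genes. PA and PA + PS2 libraries deviated together with the control of the same repeat number. A fit that also holds the repeat number (the block) is therefore given beside a result where it changes the call. Its repeat effect is shared by all 3 groups. Neuron markers were abundant in every library, Tubb3 at 1780 to 3070 CPM and Map2 at 1770 to 2400 CPM. Dividing-cell and progenitor transcripts were present too: the summed level of 18 mitosis genes was 108 to 361 CPM. Control repeat 1 stood apart, being the lowest of the 3 controls for 37 of the 45 members. Over all genes tested it was the lowest control for 38.3%.

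Promoter sequence is shown first, since E2F factors bind a motif found in the promoters of many of these genes. On both strands 4 forms of the E2F motif, each of 8 bases, were searched: TTTCCCGC, TTTCGCGC, TTTGCCGC and TTTGGCGC. The search covered RefSeq promoter windows (build GRCm38.p6) from 250 bases before to 50 bases after each start. Of 36 members with a window, 15 held at least 1 form, or 41.7%, against 704 of 27025 genes in the table, or 2.6%, and 744 of 32851 windows, or 2.26%. Base composition was not matched between them. Of 18 mitosis genes, 15 had a window and 1 held the motif. The 200 bases before the start are printed for 4 members whose expression is described below, 5′ to 3′ on the strand of the gene, with matches in capitals.
Mcm5, chr8:75109309-75109508, plus strand: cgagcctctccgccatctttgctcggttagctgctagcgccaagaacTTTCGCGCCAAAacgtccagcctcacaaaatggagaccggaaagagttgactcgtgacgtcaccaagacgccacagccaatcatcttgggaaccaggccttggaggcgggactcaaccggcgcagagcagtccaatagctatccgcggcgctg
Mcm6, chr1:128359706-128359905, minus strand: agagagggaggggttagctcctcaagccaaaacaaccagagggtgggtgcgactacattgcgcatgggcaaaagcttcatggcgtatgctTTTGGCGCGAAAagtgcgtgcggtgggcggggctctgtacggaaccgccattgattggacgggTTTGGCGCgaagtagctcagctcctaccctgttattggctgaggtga
Uhrf1, chr17:56304113-56304312, plus strand: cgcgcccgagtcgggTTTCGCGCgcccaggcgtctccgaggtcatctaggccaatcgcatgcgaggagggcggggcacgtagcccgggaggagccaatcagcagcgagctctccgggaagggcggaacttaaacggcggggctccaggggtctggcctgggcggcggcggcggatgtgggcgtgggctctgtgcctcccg
Mcm10, chr2:5012792-5012991, minus strand: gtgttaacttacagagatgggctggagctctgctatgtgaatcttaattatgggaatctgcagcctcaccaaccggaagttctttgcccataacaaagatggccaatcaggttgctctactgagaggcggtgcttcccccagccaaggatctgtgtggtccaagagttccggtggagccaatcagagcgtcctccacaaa
Mcm5 holds a sense and an antisense match that overlap, first bases at −153 and −149, and Mcm6 holds such a pair at −110 and −106 with a further match at −47. Uhrf1 has a window at each of 2 starts, of which the second, printed here, holds a match at −185. Mcm10 has no match in its window. Mcm7 holds matches at −165 and 17. Among members with a window, 5 of 9 that were lower in PA + PS2 than in control at an unadjusted p under 0.05 held a match, and 10 of 27 others. A match is a description of the letters only.

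The comparison of PA + PS2 with control asks how the scaffold holding both components related to the replication genes. No member passed the test, while 0.0446% of all genes did, 7 in number. Of the 45, 38 had a log2 fold change below 0, with a median of −0.27, against a median of 0.00 over all genes. At an unadjusted p under 0.05, 11 members were lower and 0 higher, where 4.54% of all genes were lower. With the repeat block 4 members passed, all lower: Mcm3, Mcm5, Mcm10 and Uhrf1, where 1.06% of all genes were lower. This count depends on single libraries: within the block fit it was 0 without repeat 2 or repeat 3 of control or of PA + PS2, left out one at a time, 1 without PA repeat 2, where 0.724% of all genes were lower, and 7 without PA + PS2 repeat 1, where 2.21% were. DESeq2 passed 5 members, adding Pole, where 1.29% of all genes were lower. Without control repeat 1 the edgeR test itself passed 7, namely Mcm2, Mcm3, Mcm5, Mcm10, Pole, Rrm2 and Uhrf1, where 1.07% of all genes were lower. The member median was −0.39 without control repeat 1 and −0.18 without control repeat 3, and in the block fit it was −0.26 with all libraries and −0.14 without control repeat 3.

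**Figure D1:**
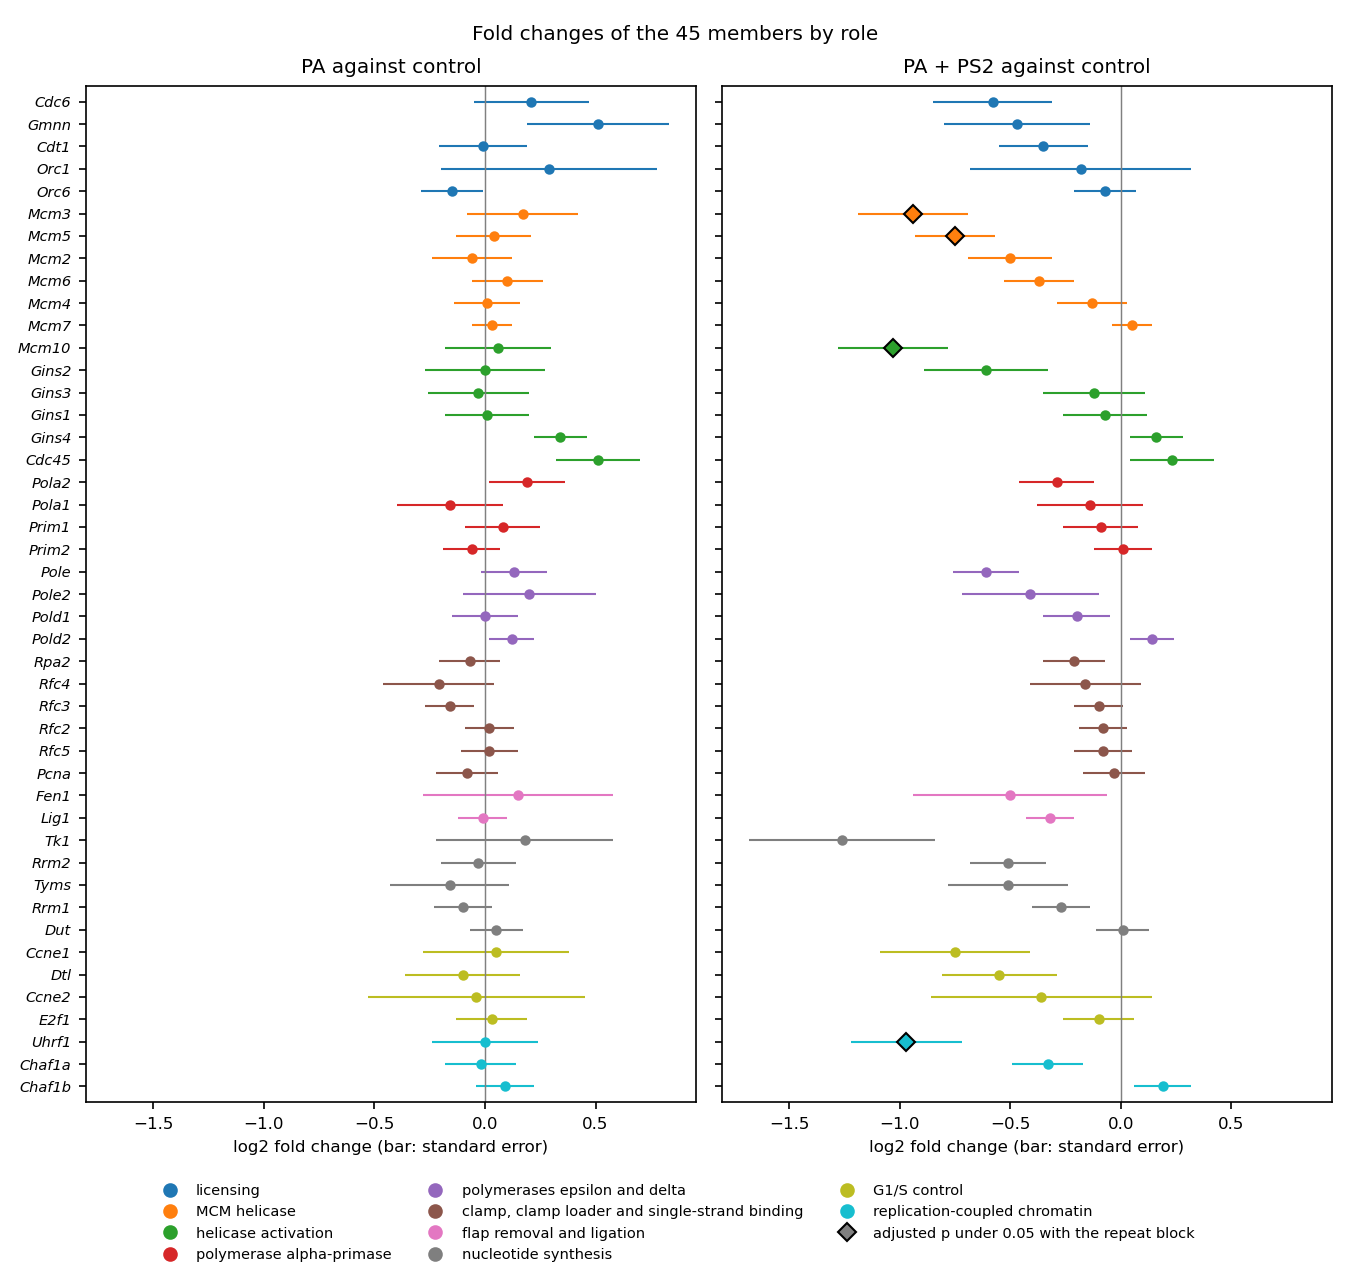
Log2 fold change of each of the 45 members (points, with bars for the standard error) in PA against control and in PA + PS2 against control, coloured by role. Diamonds mark the 4 members that passed with the repeat as a block. Most members scatter about 0 on the left, while on the right 38 of 45 lie below it.

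All 3 PA + PS2 libraries lay below all 3 controls for 11 members, where 6.54% of all genes did so: Cdc6, Cdt1, Mcm3, Mcm5, Mcm10, Gins2, Pole, Rpa2, Lig1, Uhrf1 and Chaf1a. They lay above the controls for 2, Pold2 and Chaf1b, or 4.44% of the members, where 5.38% of all genes did so. Against all 6 control and PA libraries together, 7 members were lower in every PA + PS2 library, where 2.9% of all genes were: Cdc6, Mcm3, Mcm5, Mcm10, Pole, Lig1 and Uhrf1. The difference varied with the repeat. The median over the members, PA + PS2 minus control, was −0.03 in repeat 1, −0.26 in repeat 2 and −0.40 in repeat 3. In repeat 1, 27 of 45 members were below 0, in repeat 2 39 and in repeat 3 37, and 21 or 46.7% were below 0 in all 3 repeats, against 15.5% of all genes.

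The licensing proteins select where helicases are loaded. Cdc6, an ATPase that joins the origin recognition complex, was at 1.97, 2.61 and 3.73 CPM in control repeats 1, 2 and 3, and at 1.83, 1.93 and 1.79 CPM in PA + PS2. The groups did not overlap, though control repeat 1 was close to PA + PS2, and the log2 fold change was −0.58 ± 0.27 (SE, edgeR adjusted p = 0.91). Cdt1, which brings the MCM ring to the origin, was at 5.59, 5.96 and 7.64 CPM in control and 5.0, 4.63 and 5.41 CPM in PA + PS2. Its fold change was −0.35 ± 0.20 on the log2 scale (edgeR adjusted p = 1). Gmnn, the inhibitor of Cdt1, stood at −0.47 ± 0.33. The origin subunits Orc6 and Orc1 stood at −0.07 ± 0.14 and −0.18 ± 0.50, the second on 11 to 38 counts per library. Of the exon bases of Orc1, 10.8% overlap Gm12743 on the opposite strand. None of the 5 passed in either fit.

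The 6 subunits of the MCM ring assemble in equal numbers, and their log2 fold changes ran from −0.94 to 0.05. Mcm3 (ENSMUSG00000041859) lies on the minus strand of chromosome 1 at 20802968 to 20820312 and Mcm5 (ENSMUSG00000005410) on the plus strand of chromosome 8 at 75109569 to 75128439, in build mm10 with GENCODE M21, as for the coordinates below. Mcm3 was at 8.42, 16.8 and 14.7 CPM in control, 13.4, 17.7 and 13.9 CPM in PA, and 5.24, 8.02 and 7.48 CPM in PA + PS2. Every PA + PS2 library was below every other library, and control repeat 1 was the lowest of the rest. The log2 fold change to control was −0.94 ± 0.25, a 1.92-fold lower level (edgeR adjusted p = 0.23; block fit 0.021). Mcm5 was at 17.2, 22.6 and 25.5 CPM in control, 25.4, 20.8 and 20.7 CPM in PA, and 11.6, 11.6 and 15.6 CPM in PA + PS2. Again no PA + PS2 library reached another group, at −0.75 ± 0.18 (edgeR adjusted p = 0.16; block fit 0.048). Within repeats 1, 2 and 3 the log2 difference from control was −0.68, −1.06 and −0.97 for Mcm3 and −0.57, −0.95 and −0.70 for Mcm5.

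Values of the other 4 subunits were added after they had been seen, to complete the ring. Mcm2 was at 15.9, 27.4 and 27.8 CPM in control and 16.2, 18.3 and 15.6 CPM in PA + PS2, at −0.50 ± 0.19 (edgeR adjusted p = 0.58). Mcm6 was at 26.3, 37.7 and 42.1 CPM in control and 24.0, 27.0 and 31.1 CPM in PA + PS2, at −0.37 ± 0.16 (edgeR adjusted p = 0.81). In both, control repeat 1 lay within the range of PA + PS2. Mcm4 was at 16.8, 23.0 and 26.7 CPM in control and 19.4, 20.4 and 21.2 CPM in PA + PS2, at −0.13 ± 0.16. Mcm7 was at 34.6, 36.7 and 38.9 CPM in control, 39.1, 35.7 and 38.0 CPM in PA, and 37.0, 38.3 and 38.7 CPM in PA + PS2, at 0.05 ± 0.09. The groups overlapped for both. Mcm7 shares 7.3% of its exon bases with Ap4m1 on the opposite strand, and whether the counts used strand is not given in the sources used here.

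**Figure D2:**
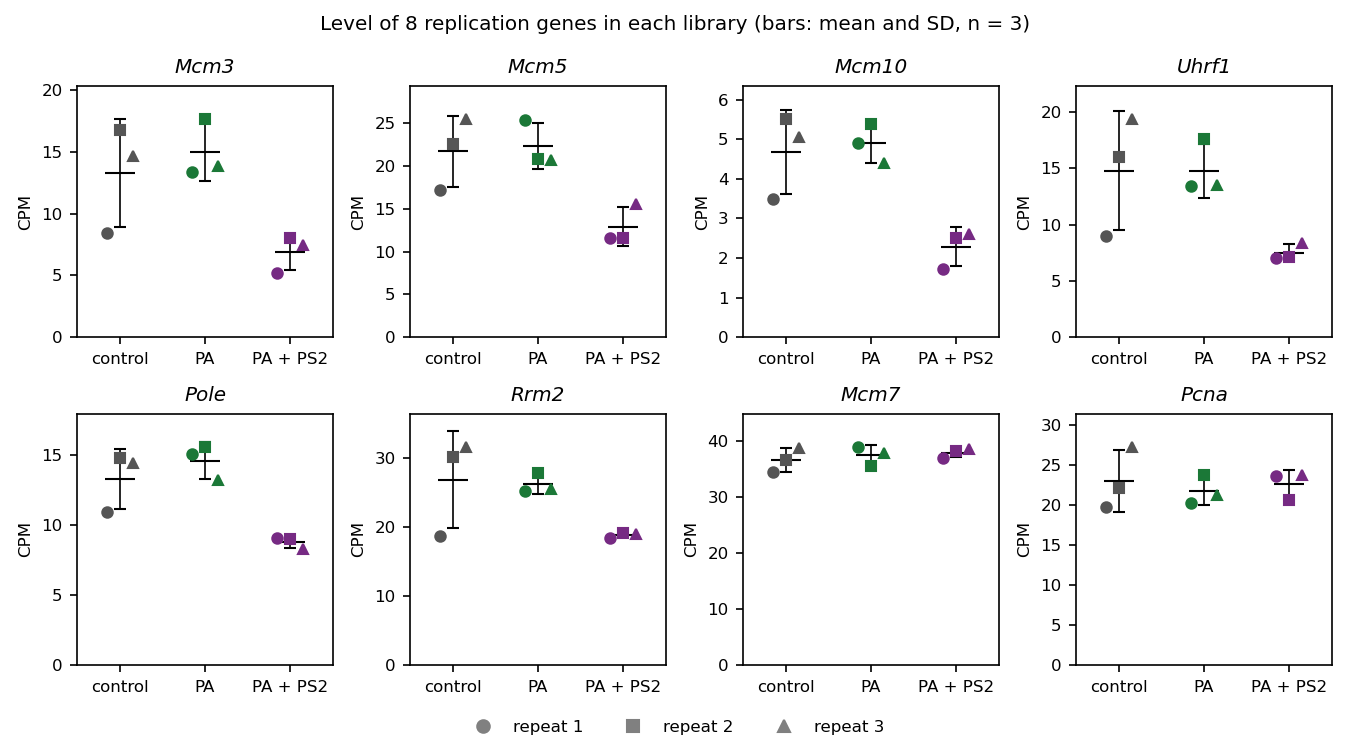
CPM of 8 members in each library, with black bars for the mean and standard deviation of 3 repeats and marker shapes for the repeat number. In Mcm3, Mcm5, Mcm10, Uhrf1 and Pole all PA + PS2 libraries lie below all others, in Rrm2 control repeat 1 lies among them, and in Mcm7 and Pcna the groups overlap.

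The ratio of 2 subunits within a library does not depend on how libraries are scaled. The log2 ratio of Mcm3 to Mcm7 counts was −2.04, −1.12 and −1.40 in control, −1.54, −1.01 and −1.45 in PA, and −2.82, −2.26 and −2.37 in PA + PS2. That of Mcm5 to Mcm4 was 0.03, −0.03 and −0.07 in control, 0.30, −0.12 and −0.20 in PA, and −0.74, −0.81 and −0.45 in PA + PS2. In both pairs every PA + PS2 library was below the other 6. Of 9 such ratios computed, 6 had this order, and in 3, Rrm2 to Rrm1, Pole to Pold1 and Tk1 to Dut, PA + PS2 overlapped control. The ratio of Mcm10 to Cdc45 was lower than control in PA too, at −0.32, −0.09 and −0.08 against 0.00, 0.36 and 0.42, and it was −1.50, −0.71 and −0.80 in PA + PS2. The pairs were chosen after the members' values were seen and were not tested.

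Helicase activation followed no single direction. Mcm10 (ENSMUSG00000026669, chromosome 2, minus strand, 4989714 to 5012791), which helps the loaded ring become an active helicase, was at 3.49, 5.52 and 5.06 CPM in control, 4.90, 5.40 and 4.40 CPM in PA, and 1.73, 2.51 and 2.62 CPM in PA + PS2. Every PA + PS2 library was below the other 6, with differences of −0.98, −1.11 and −0.93 from control within repeats. The log2 fold change was −1.03 ± 0.25, a 2.04-fold lower level (edgeR adjusted p = 0.16; block fit 0.048). Gins2, a GINS subunit, was at 3.74, 4.39 and 2.95 CPM in control and 1.97, 2.74 and 2.54 CPM in PA + PS2, at −0.61 ± 0.28 (edgeR adjusted p = 0.87). Of its exon bases 67.3% overlap Gse1 on the opposite strand, so its counts are uncertain. Gins1, Gins3 and Gins4 stood at −0.07 ± 0.19, −0.12 ± 0.23 and 0.16 ± 0.12. Cdc45, the partner of MCM and GINS in the active helicase, stood at 0.23 ± 0.19. Neither it nor a GINS gene passed.

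Among the polymerases, the catalytic subunit of epsilon stood lowest. Pole (ENSMUSG00000007080, chromosome 5, plus strand, 110286306 to 110337474), which extends the leading strand, was at 10.9, 14.8 and 14.4 CPM in control, 15.1, 15.6 and 13.2 CPM in PA, and 9.04, 8.98 and 8.27 CPM in PA + PS2. No PA + PS2 library overlapped another group, at −0.61 ± 0.15 (edgeR adjusted p = 0.19, 0.082 with the block and 0.029 in DESeq2). Pold2, the second subunit of polymerase delta, was at 24.1, 26.7 and 25.1 CPM in control and 28.0, 28.7 and 27.0 CPM in PA + PS2, slightly above without overlap, at 0.14 ± 0.10. Pole2 and Pold1 stood at −0.41 ± 0.31 and −0.20 ± 0.15. In the polymerase alpha and primase complex, Pola2 was at 8.26, 11 and 11.8 CPM in control and 7.36, 9.25 and 8.77 CPM in PA + PS2, with overlap, at −0.29 ± 0.17. Its catalytic partner Pola1 was at 14.8, 18.6 and 22.7 CPM in control and 17.2, 17.1 and 16.6 CPM in PA + PS2, at −0.14 ± 0.24. The primase subunits Prim1 and Prim2 stood at −0.09 ± 0.17 and 0.01 ± 0.13, and Prim2 had the largest p of all members, with 19.3, 19.5 and 16.8 CPM in control and 18.3, 18.7 and 19.0 CPM in PA + PS2.

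Genes of the sliding clamp and its loader stayed near the control level. Pcna, the clamp itself, was at 19.8, 22.1 and 27.3 CPM in control and 23.6, 20.6 and 23.7 CPM in PA + PS2, at −0.03 ± 0.14. The loader subunits Rfc2, Rfc3, Rfc4 and Rfc5 stood between −0.16 and −0.08. Genes on the opposite strand overlap 15.1% of the exon bases of Rfc2, 12.7% of Rfc4 and 10.7% of Rfc5. Rfc3 was at 25.5, 26.1 and 26.9 CPM in control and 26.3, 21.9 and 25.4 CPM in PA + PS2. Rpa2, a subunit of the protein that coats single-stranded DNA, was at 12.5, 13.5 and 13.1 CPM in control and 10.9, 12.5 and 10.5 CPM in PA + PS2, at −0.21 ± 0.14. Its highest PA + PS2 library and its lowest control were nearly equal. Lig1, the ligase that seals lagging-strand fragments, was at 32.1, 36.1 and 37.9 CPM in control and 26.8, 29.7 and 28.8 CPM in PA + PS2, at −0.32 ± 0.11 (edgeR adjusted p = 0.5). Fen1, the nuclease that trims the flaps before ligation, was at 0.698, 1.09 and 0.691 CPM in control and 0.385, 0.809 and 0.541 CPM in PA + PS2, on 8 to 29 counts per library. Since 78.8% of its exon bases overlap Gm10143 on the opposite strand, this low level is uncertain.

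Nucleotide synthesis split between enzymes. Tk1, the thymidine kinase of S phase, was at 1.81, 3.74 and 4.10 CPM in control, 2.97, 5.57 and 2.41 CPM in PA, and 0.866, 1.89 and 1.21 CPM in PA + PS2. PA + PS2 repeat 2 overlapped control repeat 1, and the fold change was the lowest of all members, −1.26 ± 0.42 (edgeR adjusted p = 0.43; block fit 0.087). Rrm2, the subunit of ribonucleotide reductase whose amount follows the cell cycle, was at 18.7, 30.2 and 31.7 CPM in control and 18.4, 19.2 and 19.0 CPM in PA + PS2, at −0.51 ± 0.17 (edgeR adjusted p = 0.44). Within repeat 1 the difference was −0.02, against −0.65 and −0.73 in repeats 2 and 3. Its large partner Rrm1 stood at −0.27 ± 0.13. Tyms, thymidylate synthase, stood at −0.51 ± 0.27 with 0.22, −0.35 and −1.12 in the 3 repeats, so it had no common direction. Dut, which removes dUTP, stood at 0.01 ± 0.12.

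Of the G1/S regulators, Ccne1, cyclin E1, was at 1.85, 4.70 and 4.42 CPM in control and 1.73, 2.35 and 2.41 CPM in PA + PS2, at −0.75 ± 0.34 (edgeR adjusted p = 0.9). Dtl, which directs Cdt1 to destruction in S phase, was at 5.87, 10.1 and 9.99 CPM in control and 6.59, 5.17 and 5.99 CPM in PA + PS2, at −0.55 ± 0.26 (edgeR adjusted p = 0.92). For both, control repeat 1 lay among the PA + PS2 libraries. Ccne2 stood at −0.36 ± 0.50, with a coefficient of variation of 54.4% in control, the highest of the members. Of its exon bases 17.4% overlap Ints8 on the opposite strand. E2f1 stood at −0.10 ± 0.16.

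Chromatin is rebuilt behind the fork. Uhrf1 (ENSMUSG00000001228, chromosome 17, plus strand, 56303321 to 56323486), which guides maintenance methylation to new DNA, was at 9.0, 16.0 and 19.4 CPM in control, 13.4, 17.6 and 13.5 CPM in PA, and 7.07, 7.13 and 8.36 CPM in PA + PS2. No PA + PS2 library reached another group, at −0.97 ± 0.25 or 1.96-fold (edgeR adjusted p = 0.18; block fit 0.049). Within repeats the difference was −0.34, −1.15 and −1.21. The 2 listed subunits of chromatin assembly factor 1 stood on opposite sides of 0. Chaf1a was at 11.1, 15 and 11.6 CPM in control and 11, 10.3 and 8.77 CPM in PA + PS2, at −0.33 ± 0.16, and 52.5% of its exon bases overlap Ubxn6 on the opposite strand. Chaf1b stood at 0.19 ± 0.13, above control in all 3 PA + PS2 libraries.

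The comparison of PA with control asks the same of the scaffold without the polymer. No member passed, as 0% of all genes did, and the median was 0.02, with 27 of 45 above 0. At an unadjusted p under 0.05 there were 2 members, both higher in PA, where 1.22% of all genes passed in either direction. DESeq2 likewise passed 0 members. Both belong to helicase activation. Gins4 was at 24.2, 27.2 and 23.3 CPM in PA against 22.4, 18.2 and 18.6 CPM in control, at 0.34 ± 0.12, and Cdc45 at 6.12, 5.74 and 4.66 CPM against 3.49, 4.30 and 3.78 CPM, at 0.51 ± 0.19 (edgeR adjusted p = 1 for both). Neither overlapped between groups, where 1.97% of all genes were higher without overlap. Rfc3 was the other member without overlap and lay lower in PA, at 22.1, 24.1 and 24.0 CPM, with a log2 fold change of −0.16 ± 0.11, where 2.07% of all genes were lower in this way. Gmnn came next by p, at 1.93, 2.14 and 2.93 CPM against 1.23, 1.52 and 2.16 CPM with overlap, at 0.51 ± 0.32. The median depended on the repeat, at 0.30, 0.02 and −0.15 in repeats 1, 2 and 3.

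The comparison of PA + PS2 with PA sets the scaffold with PS2 beside the scaffold without it. It shares the PA + PS2 libraries with the comparison above, so the results are given side by side and not as separate support. No member passed, as 0% of all genes did, and the median was −0.31 with 36 of 45 below 0, against 0.01 over all genes. At an unadjusted p under 0.05, 15 members were lower and 0 higher, where 4.58% of all genes were lower. Libraries did not overlap, PA + PS2 being lower, for 17 members, where 6.32% of all genes did so. The 3 with the smallest p were Pole at −0.74 ± 0.15 (edgeR adjusted p = 0.24), Mcm10 at −1.09 ± 0.24 (0.25) and Mcm5 at −0.78 ± 0.18 (0.25). With the repeat block Mcm3 alone passed, at an adjusted p of 0.029, where 0.337% of all genes passed lower, and DESeq2 passed Mcm3, Mcm5, Mcm10, Pole and Uhrf1, where 0.751% of all genes passed lower. Whether repeat numbers pair these libraries is not settled. The correlation of deviations was 0.0147 in repeat 1, 0.292 in repeat 2 and 0.302 in repeat 3. The medians within repeats were −0.31, −0.31 and −0.24, and 25 members or 55.6% were below 0 in all 3 repeats, against 14% of all genes. PA repeat 1, unlike control repeat 1, was not low: it was the lowest PA library for 18 members and the highest for 17.

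Because control repeat 1 stood apart, its difference from the mean of control repeats 2 and 3 was set beside the difference of PA + PS2 from PA, which uses other libraries. This was chosen after the values were seen. Over the 45 members the median was −0.31 for the first and −0.27 for the second, against 0.00 and 0.02 over all genes. Of the members 40 were below 0 in the first and 36 in the second, and 32 in both is the number that these separate counts would give with no relation between them. Across members Pearson's r was 0.56, and across all 15712 genes it was 0.24. The genes are not independent, low-count members add noise to both axes, and the first difference rests on 1 library. Mcm3 (−0.90 and −1.12), Uhrf1 (−0.96 and −0.96) and Tk1 (−1.08 and −1.38) were low in both. Ccne2 was low in control repeat 1 only, at −1.54 against −0.09.

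**Figure D3:**
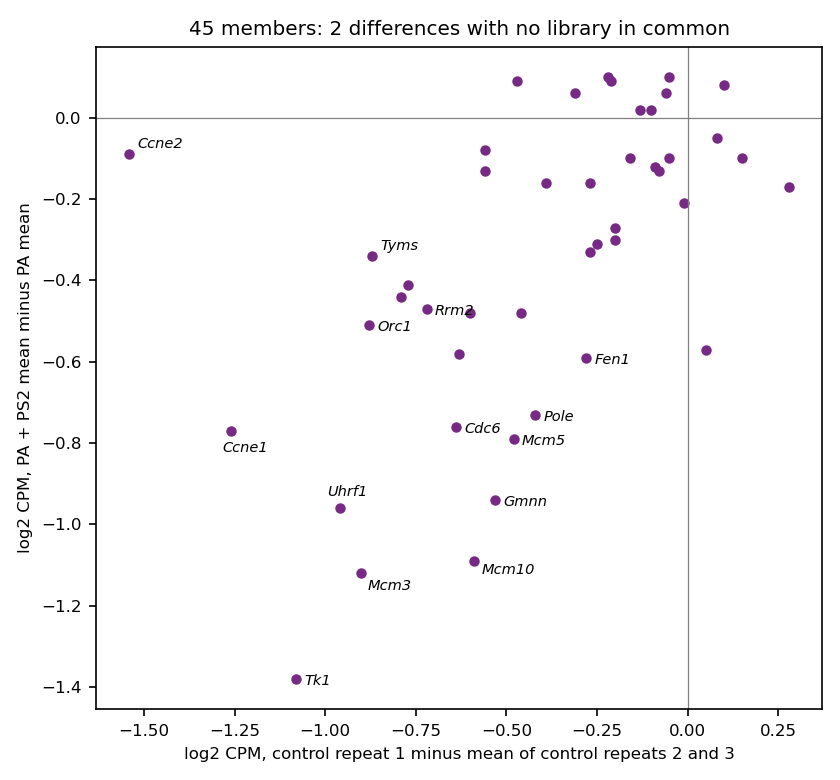
Each point is 1 of the 45 members; the horizontal axis is log2 CPM in control repeat 1 minus the mean of control repeats 2 and 3, and the vertical axis is the PA + PS2 mean minus the PA mean. Most members lie left of 0 (40) and below 0 (36), and the 32 in the lower left are no more than these counts give. Tk1, Mcm3 and Uhrf1 lie far out in both directions, with Ccne2 displaced along the horizontal axis alone.

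Other genes of the pathway were read from lists outside the 45, chosen like the members with earlier results of these data known. No gene of these lists passed in any of the 3 comparisons. Among 24 other genes of E2F, RB and G1/S control, 20 were below 0 in PA + PS2 against control, with a median of −0.13. With the block 5 passed lower, where 1.06% of all genes did: Ccna2, Ccnd1, Ccnd2, Cdk6 and E2f8. Ccnd1, cyclin D1, was at 7.11, 11.3 and 12.1 CPM in control and 4.76, 4.86 and 3.87 CPM in PA + PS2, at −1.17 ± 0.25 (edgeR adjusted p = 0.11; block fit 0.03). E2f8, a repressor of E2F targets, stood at −1.56 ± 0.38 (0.17, and 0.039 with the block), and Ccna2, cyclin A2 of S and G2 phase, at −1.36 ± 0.37 (0.23, and 0.019 with the block). Of 24 other replisome, fork protection and firing genes, 20 were below 0, with a median of −0.17 and 0 passing with the block. Ticrr, needed to fire origins, stood at −0.65 ± 0.20, Mms22l, a fork repair factor, at −0.76 ± 0.27 and the checkpoint adaptor Clspn at −0.97 ± 0.36.

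Medians of 3 further lists lay close to 0, and that of the mitosis list lay furthest from 0 of the 6 pathway lists. The 9 other origin and licensing genes had a median of −0.03, and Mcm8, Dbf4 and Orc5 stood at −0.45 ± 0.19, −0.22 ± 0.17 and 0.21 ± 0.18. The 29 other genes of nucleotide synthesis, many of which make nucleotides for RNA as well, had a median of 0.01, with 14 below 0. Samhd1, which degrades deoxynucleotides, stood at −0.46 ± 0.16, while Shmt2 and Dhodh, mitochondrial enzymes of serine and pyrimidine metabolism, stood at 0.29 ± 0.13 and 0.27 ± 0.12. The 12 other genes of replication-coupled chromatin had a median of −0.04, with Asf1b at −0.98 ± 0.31, Atad2 at −0.87 ± 0.31 and Anp32b at −0.22 ± 0.10. All 18 mitosis genes were below 0, with a median of −1.03, and 10 passed lower with the block, where 1.06% of all genes did. How the block calls of the pathway lists depend on single libraries was not examined. Cdk1, Tpx2 and Kif20a stood at −1.23 ± 0.26, −0.83 ± 0.20 and −1.13 ± 0.28.

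Most tested markers of other cell types, neurons aside, were below 0 in PA + PS2 against control too. In bulk samples fewer cells of a type and less RNA per cell cannot be told apart. The summed level of the 45 members was 641 to 800 CPM in control, 726 to 768 CPM in PA and 625 to 650 CPM in PA + PS2. Markers of radial glia and intermediate progenitors, 10 of 11 below 0, summed to 368 to 619, 480 to 555 and 306 to 348 CPM in the same order, with Hes1 and Hes5 near 1 CPM, and Nes and Vim passed lower with the block. Control repeat 1 had the lowest control value of both lists. Fibroblast, pericyte and smooth muscle markers, 8 of 8 tested below 0, summed to 135 to 195, 89.3 to 159 and 12 to 57 CPM, and Kcnj8 was at 0 counts in every control. Of these 8, Acta2, Col1a1, Pdgfrb and Tagln passed lower with the block, a larger share than among the members. Oligodendrocyte lineage markers, 6 of 8 below 0, summed to 59.9 to 85.6, 67.0 to 77.4 and 50.5 to 72.1 CPM, with Sox10 near 1 CPM, and Olig1, Olig2 and Pdgfra passed lower with the block. In that fit 1.06% of all genes passed lower.

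Astrocyte markers, 5 of 7 tested below 0 and 2 above, summed to 160 to 264, 208 to 248 and 164 to 198 CPM. Gfap went the other way, with means of 0.824 CPM in control, 2.38 CPM in PA and 2.75 CPM in PA + PS2. Its level was low throughout, at 0.0822 to 4.53 CPM over the 9 libraries. Microglial markers, 4 of 6 tested below 0, summed to 6.24 to 8.87, 5.53 to 8.42 and 4.09 to 5.1 CPM, with P2ry12 at 0 in every control. Endothelial markers, 2 of 3 tested below 0, summed to 5.87 to 8.89, 4.96 to 7.54 and 2.08 to 4.43 CPM, with Cldn5 at 0 in every control. Both sums were lower in every PA + PS2 library than in every control. C1qb, Cx3cr1, Flt1 and Kdr were lower without overlap between these groups, where 6.54% of all genes were. Levels of C1qb, Cx3cr1 and Flt1 were low, with control means of 0.861, 1.32 and 1.65 CPM. Above 0 lay 2 microglial markers and 1 endothelial marker, Pecam1, at means of 0.649 CPM in control and 0.913 CPM in PA + PS2. Choroid plexus and ependymal markers, 4 of 5 tested below 0, summed to 12.6 to 47.9, 11.1 to 24.2 and 21.7 to 38.2 CPM. The 11 neuron markers had a median of 0.02 and summed to 6940 to 7590, 6790 to 8030 and 7330 to 8060 CPM. The share of each cell type in the differences of the replication genes was not tested.

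**Figure D4:**
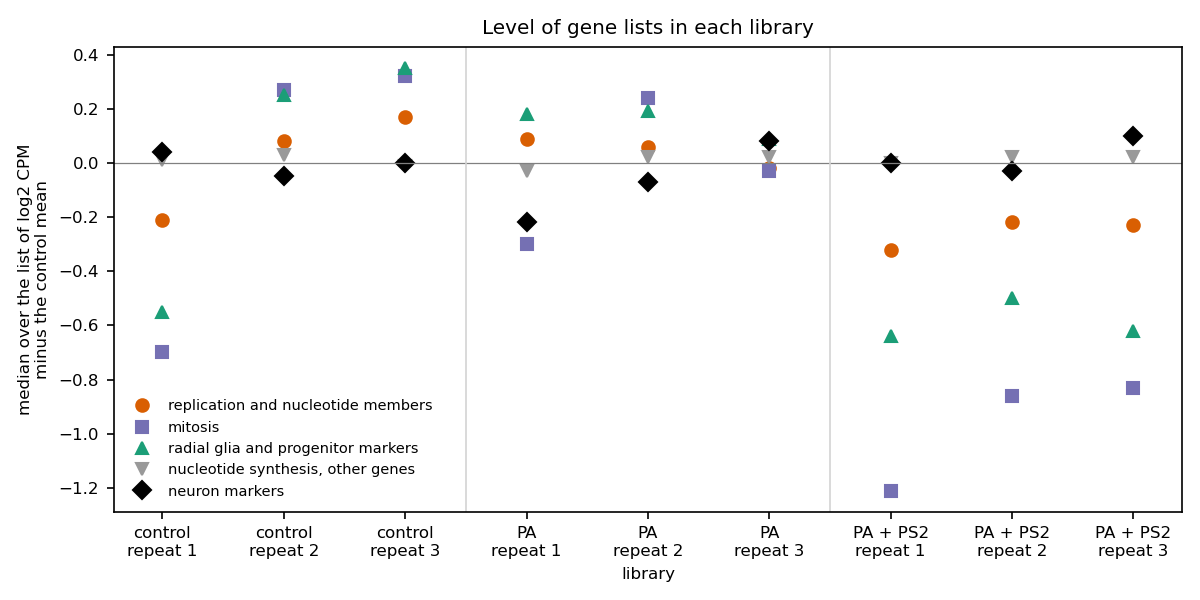
Median over each list of log2 CPM minus the control mean, in each of the 9 libraries; points are lists and vertical lines separate the groups. The members, the mitosis genes and the progenitor markers are low in all 3 PA + PS2 libraries and in control repeat 1. The mitosis genes are also below 0 in PA repeat 1, at −0.30. Neuron markers and other nucleotide synthesis genes stay near 0 apart from the neuron markers in PA repeat 1.

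The spread between repeats differed among groups. The median coefficient of variation of the members was 17.9% in control, 12.3% in PA and 9.51% in PA + PS2, against 12.6%, 16.8% and 9.12% over all genes tested. In control it ran from 2.80% in Rfc3 to 54.4% in Ccne2, with Mcm7 at 5.81%, Dut at 4.85%, E2f1 at 3.67% and Chaf1b at 3.52%.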

How the data were processed

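The 9 count files hold whole-number read counts per Ensembl gene as the authors deposited them, without normalization, per the file headers and values. Per the submitters' processing notes the tools were cutadapt 4.2, STAR 2.7.5, HTSeq 2.0.2 and DESeq2 1.14.1 with build mm10, and no roles, strand setting or annotation release are stated. Symbols and coordinates came from GENCODE M21, which named 54079 of 54232 identifiers. The labels give polyA RNA as the molecule but a total RNA kit, so RNA selection is not settled. Genes were kept by filterByExpr (minimum count 10, minimum total 15), leaving 15712 genes with 99.9% of counts. The quasi-likelihood test of edgeR 4.0.16 in R 4.3.3, with trimmed mean of M values (TMM) scaling, was fitted to all 9 libraries with 6 residual degrees of freedom, 2-sided, with Benjamini-Hochberg adjustment across all genes, and was tested on simulated data. SE was taken as the size of the log2 fold change divided by the root of F. Log2 CPM used a prior count of 2. DESeq2 1.42.0 was an alternative, with other scaling, no filter, 2 groups alone, the repeat block and leaving out each library.

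The members and lists were chosen with earlier results of these data known. In PA + PS2 against control, values in each library of both groups are given for the 2 members of each role with the smallest p. The same holds for the member with the largest p and, in the groups of each other comparison, for 3 members. Of other lists 3 genes are named, mostly by fold change alone. Values of Mcm2, Mcm4, Mcm6, Mcm7 and Pcna were added after being seen. Repeat numbers were taken to pair PA with control (correlations of deviations across genes 0.422, 0.365 and 0.28) and PA + PS2 with control (0.183, 0.217 and 0.135), not PA + PS2 with PA (0.0147, 0.292 and 0.302). The labels give no meaning for the numbers, so this pairing rests on these correlations. The block fit nonetheless holds a repeat effect shared by all 3 groups. Its calls against control therefore also treat PA + PS2 and PA libraries of the same number as paired. Count precision is limited by depth, and errors cover the spread between libraries.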

Additional observations from a re-analysis of the deposited data

How the results depend on the processing

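In PA + PS2 against control the count of genes passing was 17 with RLE size factors, 365 without the filter, 224 in DESeq2, 28 with the 2 groups alone, 184 with the repeat block, 340 in DESeq2 with the block, and 0 to 175 leaving out 1 library. Members passing were 5 without the filter, 5 in DESeq2, 4 with the block, 6 in DESeq2 with the block and 0 to 7 leaving out 1 library. With the block, leaving out 1 library (added after seeing the data) gave 0 to 7 members. In PA + PS2 against PA, 330 genes passed without the filter, 128 in DESeq2, 57 with the block, 255 in DESeq2 with the block and 0 to 37 leaving out 1 library, and members passing were 6, 5, 1, 7 and 0 to 2 in the same order. The member median ran from −0.39 to −0.18 in PA + PS2 against control and from −0.37 to −0.20 in PA + PS2 against PA leaving out 1 library. In PA against control, 23 genes passed without the filter and 1 in DESeq2 with the block, and 0 members under every alternative. Of the named genes in PA + PS2 against control, Pola1 turned to 0.03 and Prim2 to −0.06 without control repeat 3, and Prim2 to 0.00 without PA + PS2 repeat 3. Leaving out 1 library gave Pola1 −0.28 to 0.03 and Prim2 −0.06 to 0.06. For named genes under the other alternatives, the call stayed the same 271 times and was gained 20 times in PA + PS2 against control. It stayed 36 times and was gained 6 times in PA + PS2 against PA, and 42 and 0 times in PA against control. These counts leave out DESeq2 with the block. In that fit Mcm3, Mcm5, Mcm10, Pole, Tk1 and Uhrf1 also passed against control. Mcm5, Mcm10 and Pole, the genes named in PA + PS2 against PA, passed there too. The cause was not tested.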
